A study of Mus musculus with 2 samples.

Results

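The level of *Nppc*, *Npr2*, *Prkg1* and *Gucy1a2* was examined in single spiral ganglion neurons, the neurons that carry signals from the cochlea to the brain. The 4 genes were taken by name from the 14425 genes of the deposited table, and all 4 were present. They were selected on their levels in these same libraries, with results already known, so their values are a description and no test is attached to them. The study's title concerns the control of auditory neuron diversity by *Runx1*, a transcription factor, and the 2 libraries set control neurons beside neurons in which a floxed *Runx1* allele could be recombined. The iCON library came from mice of genotype Runx1-CreER/+; Ai14/+, and the iCKO library from mice of genotype Runx1-CreER/Runx1F; Ai14/+. All mice therefore carried a tamoxifen-inducible Cre driven from the *Runx1* locus, which was present in the controls too, and the Ai14 tdTomato reporter. All received tamoxifen at P1 and were used at P27 to P29, and the labels describe cochlear tissue of both sexes sorted for tdTomato. Only cells with an active *Runx1* locus around the time of tamoxifen can carry the label, and the number of animals behind each library is not stated in the labels. There was 1 library per genotype, so no difference given here has a replicate check, cells are not replicates, and no p-value was computed.

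C-type natriuretic peptide (CNP), the product of *Nppc*, is a secreted ligand. Its receptor, encoded by *Npr2*, is a membrane guanylyl cyclase that makes cyclic GMP when CNP binds, and cyclic GMP activates the kinase encoded by *Prkg1*. This pathway is known for the branching of sensory axons as they enter the brainstem or spinal cord, auditory nerve axons included. *Gucy1a2* encodes an alpha subunit of the soluble guanylyl cyclase, which makes cyclic GMP in response to nitric oxide and needs a beta subunit to be active.

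In GRCm38, *Nppc* lies on chromosome 1 from 86666291 to 86670571 on the minus strand and *Npr2* on chromosome 4 from 43631935 to 43651244 on the plus strand. *Prkg1* lies on chromosome 19 from 30564489 to 31765033 on the minus strand, and *Gucy1a2* on chromosome 9 from 3532778 to 3894736 on the plus strand. All 4 are annotated as protein coding. *Npr2* overlaps 1 gene and *Prkg1* overlaps 3 genes, each on the opposite strand and none over the 3′ end that the assay reads. The bases before the start site are shown for *Nppc*, the member whose level differed most between the libraries, and for *Prkg1*, which has 2 annotated starts that a 3′ assay cannot tell apart. They are RefSeq sequences of GRCm38.p6, 250 bases long, 5′ to 3′ on the gene's strand, with motif matches in capitals.
Nppc, chr1:86670574-86670823, minus strand: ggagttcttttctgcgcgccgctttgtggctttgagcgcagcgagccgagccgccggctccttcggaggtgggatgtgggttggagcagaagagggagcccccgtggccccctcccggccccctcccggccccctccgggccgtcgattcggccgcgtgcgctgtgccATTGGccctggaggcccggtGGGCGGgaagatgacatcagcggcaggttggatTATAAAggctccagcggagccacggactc
Prkg1, upstream start, chr19:31765034-31765283, minus strand: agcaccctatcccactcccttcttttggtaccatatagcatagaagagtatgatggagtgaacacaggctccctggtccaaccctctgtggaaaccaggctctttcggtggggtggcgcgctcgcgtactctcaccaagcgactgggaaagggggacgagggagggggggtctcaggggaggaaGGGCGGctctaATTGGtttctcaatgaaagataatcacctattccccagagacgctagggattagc
Prkg1, downstream start, chr19:31664371-31664620, minus strand: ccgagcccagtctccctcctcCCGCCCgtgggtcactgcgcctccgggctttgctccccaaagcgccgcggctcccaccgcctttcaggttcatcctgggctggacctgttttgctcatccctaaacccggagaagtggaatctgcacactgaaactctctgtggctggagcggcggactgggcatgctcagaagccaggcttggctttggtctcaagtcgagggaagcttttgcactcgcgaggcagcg
Both strands were searched for the TATA box letters TATAAA, the CCAAT box as CCAAT and the GC box as GGGCGG. The RUNX core was searched as TGTGGT and also as its variant TGCGGT, and the cyclic AMP response element as TGACGTCA. The *Nppc* sequence holds TATAAA from -29 to -24 relative to the start, GGGCGG from -62 to -57 and CCAAT on the opposite strand from -82 to -78. TATAAA occurs in 12.4% of 32851 promoter sequences of this length, CCAAT in 33.8% and GGGCGG in 32.7%. The upstream *Prkg1* start holds CCAAT and GGGCGG and the downstream start GGGCGG alone. No RUNX core match was found in the promoter sequences of the 4 genes, and 18.6% of all promoter sequences hold one. TGACGTCA was also without a match, and 1.55% of all promoter sequences hold it.

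The iCON library held 462 cells and 22011292 unique molecular identifiers (UMIs), and the iCKO library 407 cells and 13743824 UMIs. Median depth was 49725.5 UMIs per cell (16168 to 93322) in iCON and 33602 (18582 to 79487) in iCKO, and no cell barcode was shared between them. The libraries also differed in make-up. Cells with *Xist* and no Y-linked RNA were 54.5% of iCON and 78.4% of iCKO, and cells with little RNA of myelin genes (under 5 per 10000 UMIs) were 23.6% and 38.6%. The median of the 8 glial marker genes was a log2 ratio of -0.71, iCKO over iCON, and 7 of the 8 were lower in iCKO. *Runx1* itself was higher in the library labelled iCKO, at 1.12 per 10000 UMIs against 0.867 in iCON. Where the floxed segment lies is not given in the labels and RNA from outside it would still be counted, so this level does not check the deletion. Levels below are means over cells of UMIs per 10000 UMIs, and a log2 ratio adds 0.05 to each mean. Intervals are exact at 95% and cover counting error only, and those of ratios refer to summed UMIs without the 0.05.

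*Nppc*, the ligand gene, was sparse in both libraries and lower in iCKO. In iCON 142 UMIs were found in 99 of 462 cells, a mean of 0.0622 per 10000 (SD over cells 0.142). In iCKO 37 UMIs were found in 33 of 407 cells, a mean of 0.0303 (SD over cells 0.119). The median cell had no *Nppc* UMI in either library, and the highest cell reached 0.977 in iCON and 1.35 in iCKO, so the cells overlap. The log2 ratio of summed UMI shares, iCKO over iCON, was -1.26 (-1.82 to -0.73), a fold of 0.417. With 0.05 added to each mean it was -0.48, just short of the 0.5 used here to count a gene as higher or lower. The other 3 genes lay within 0.1 of 0 on that scale, so 0 of the 4 members was past it. Of 9769 genes whose mean over both libraries reached 0.05, 1.34% were higher and 3.12% lower by 0.5 or more, and the median of all those genes was -0.03. The *Nppc* mean over both libraries, 0.0463, is itself under that minimum, so 3 of the 4 members pass it. With a minimum of 0.02, chosen after its level was seen, 1.25% were higher and 3.07% lower.

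**Figure D1:**
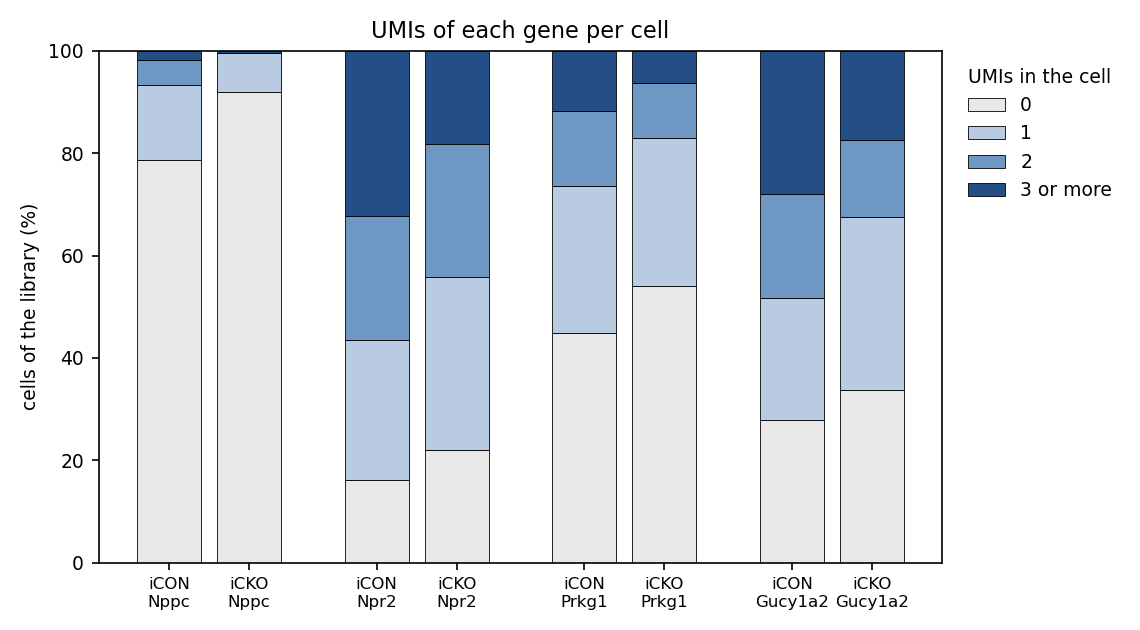
Share of the cells of each library (vertical axis, percent) with 0, 1, 2 or 3 or more UMIs of each gene, in the 462 iCON and 407 iCKO cells, not adjusted for depth. *Nppc* was found in 99 iCON and 33 iCKO cells, and the other 3 genes in most iCON cells.

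The gap between the libraries in the share of cells with an *Nppc* UMI was narrower at equal depth. Before thinning, 21.4% of iCON and 8.11% of iCKO cells had an *Nppc* UMI. With cells thinned to 20000 UMIs (454 iCON and 405 iCKO cells were deep enough), the shares were 9.69% (7.13 to 12.8) and 5.19% (3.24 to 7.82). *Npr2*, *Prkg1* and *Gucy1a2* had nearly the same thinned share in the libraries, at 58.6% and 58.8%, 32.2% and 31.1%, and 50.7% and 49.1%.

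*Npr2*, the CNP receptor gene, was at 0.435 in iCON (SD 0.342) and 0.444 in iCKO (SD 0.364). Its log2 ratio was 0.02, and that of summed UMIs 0.05 (-0.09 to 0.20). *Prkg1*, the kinase gene, was at 0.232 (SD 0.331) in iCON. In iCKO it stood at 0.216 (SD 0.305), which gave a log2 ratio of -0.09 and of summed UMIs -0.05 (-0.26 to 0.17). *Gucy1a2* was at 0.361 (SD 0.342) and 0.365 (SD 0.367), a log2 ratio of 0.01 and of summed UMIs 0.02 (-0.14 to 0.18). The counting intervals of these 3 genes include 0, and the widest of their bounds is -0.26. Of the cells with an *Nppc* UMI, 89 of 99 in iCON and 22 of 33 in iCKO also had an *Npr2* UMI. A single *Nppc* UMI was all that 68 of these 99 and 31 of these 33 cells held, and the share of UMIs from free RNA was not estimated. In all cells the *Npr2* shares were 83.8% and 77.9%. *Npr2* and *Prkg1* were found together in 46.5% of iCON and 37.6% of iCKO cells.

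Type I spiral ganglion neurons are commonly told apart by *Calb2*, *Calb1* and *Lypd1*, which mark the subtypes Ia, Ib and Ic. Cells were therefore divided by the linear level of these genes. Lypd1-high cells had at least 10 *Lypd1* per 10000. The rest were called Calb2-high at 100 *Calb2* per 10000 or more, Calb2-intermediate from 10 to 100, and low in both below 10. These are ranges, not types, and many cells lay near the limit between the Calb2 ranges: 111 iCON and 190 iCKO cells had 50 to 200 *Calb2* per 10000. The libraries filled the ranges unequally. Calb2-intermediate cells were 35.7% of iCON and 14.7% of iCKO, Calb2-high cells 18.4% and 52.3%, and Lypd1-high cells 39.0% and 31.0%.

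*Nppc* had its highest level in the Calb2-intermediate cells of each library and its lowest, above 0, in the Calb2-high cells. In iCON the mean was 0.10 in 165 intermediate cells (79 UMIs), 0.0554 in 180 Lypd1-high cells (49 UMIs) and 0.0266 in 85 Calb2-high cells (14 UMIs). In iCKO it was 0.0923 in 60 intermediate cells (15 UMIs), 0.0351 in 126 Lypd1-high cells (14 UMIs) and 0.0112 in 213 Calb2-high cells (8 UMIs). The order of the ranges was the same in both libraries. Between neighbours in it, only the step from intermediate to Lypd1-high cells in iCON had counting intervals that did not overlap (0.0814 to 0.128 and 0.0410 to 0.0733).

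The intermediate cells held 3.28 times the *Nppc* share of the Calb2-high cells in iCON, a log2 ratio of summed UMIs of 1.72 (0.88 to 2.65). In iCKO the fold was 7.74, a log2 ratio of 2.95 (1.62 to 4.40). With 0.05 added to each mean the log2 ratios were 0.97 and 1.22. This pair of ranges was set side by side after their values were seen. Among all genes, 3.95% in iCON and 3.53% in iCKO were higher in intermediate than in Calb2-high cells by at least 0.5, and 1.91% and 2.2% lower. Calb2-high cells were the deeper ones, with a median of 55533 UMIs against 48196 in iCON and 34525 against 29811 in iCKO. After thinning, an *Nppc* UMI was found in 15.5% of intermediate and 1.20% of Calb2-high cells in iCON, and in 15.3% and 2.82% in iCKO. The 1.20% stands for 1 of 83 cells in 1 random draw, so the size of that gap is not settled by it. Cells with little myelin-gene RNA made up 18.8% of intermediate and 35.3% of Calb2-high cells in iCON, and 43.3% and 39.0% in iCKO. *Xist* cells made up 41.8% of intermediate and 64.7% of Calb2-high cells in iCON. Within the *Xist* cells of iCON the log2 ratio of summed UMIs was 0.83 (-0.34 to 2.10), and within the cells with Y-linked RNA 2.29 (0.86 to 4.21). In iCKO the same values were 2.83 (1.18 to 4.60) and 2.67 (0.05 to 6.06).

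Over all cells of these ranges the other 3 members showed no such step. In iCON and iCKO their log2 ratios of intermediate over Calb2-high cells were -0.16 and 0.08 for *Npr2*. They were -0.15 and 0.20 for *Prkg1*, and 0.25 and -0.14 for *Gucy1a2*. Among iCON cells with little myelin-gene RNA, 2 of the 4 members were higher by at least 0.5, with 8.62% of all genes. The same count held among iCKO *Xist* cells, with 4.79% of all genes. In iCKO cells with Y-linked RNA 1 was higher and 1 lower, with 12.5% and 10.4% of all genes. Other subsets by sex-linked or myelin-gene RNA had 1 higher and 0 lower, with 4.17% to 7.55% of all genes higher and 2.39% to 6.83% lower.

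**Figure D2:**
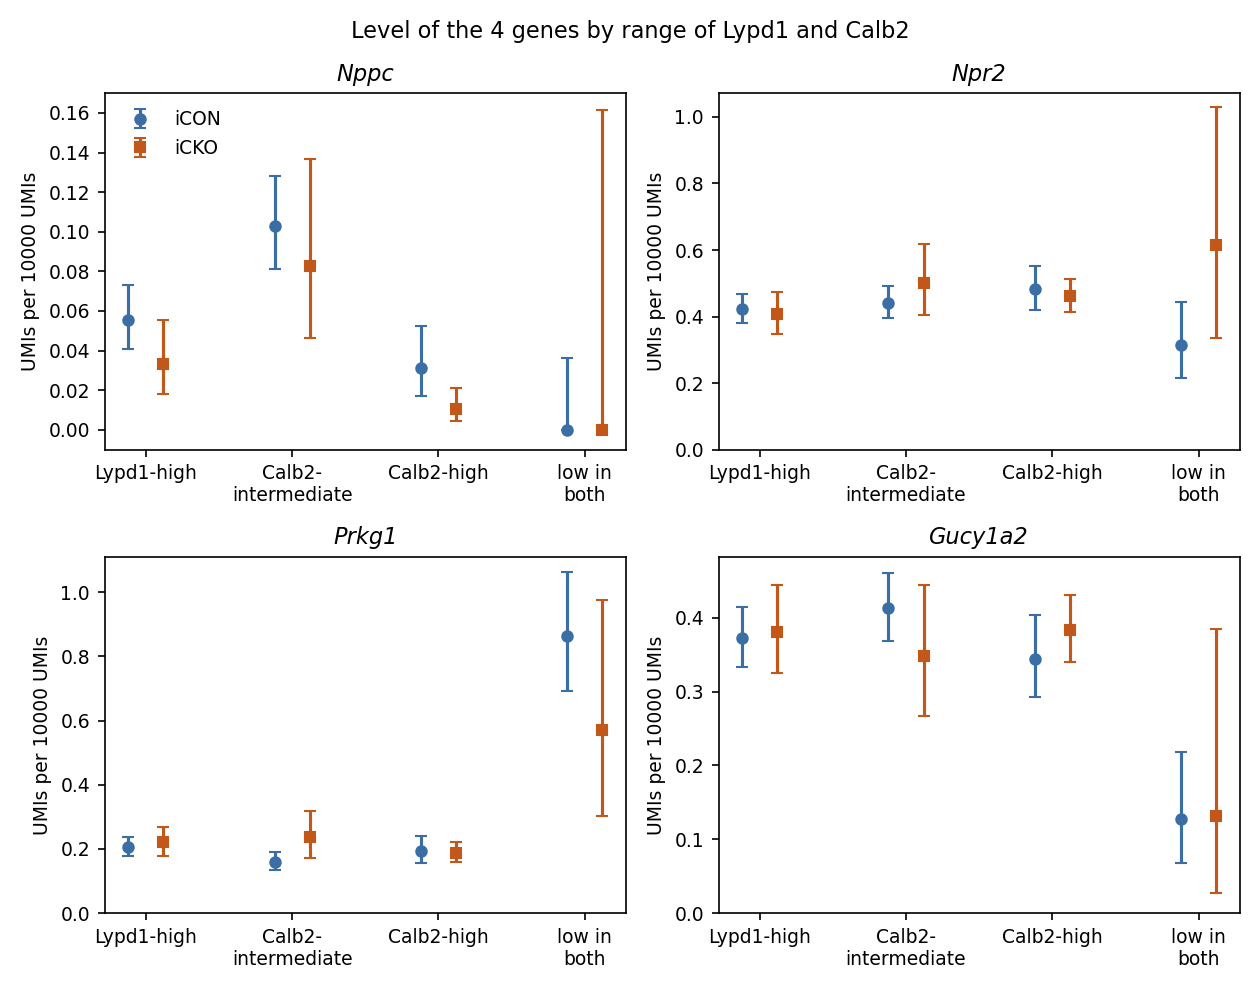
Summed UMIs of each gene per 10000 UMIs (vertical axis, a separate scale for each gene) in 4 ranges of *Lypd1* and *Calb2* level, for iCON (circles) and iCKO (squares), with exact 95% Poisson intervals for counting error. *Nppc* was highest in Calb2-intermediate cells, *Npr2* was near level across the first 3 ranges, and in cells low in both genes *Prkg1* was higher and *Gucy1a2* lower.

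Within a range the libraries were closer for *Nppc* than over all cells, with 1 exception. The log2 ratio of summed UMIs, iCKO over iCON, was -0.31 (-1.22 to 0.50) in Calb2-intermediate cells and -0.74 (-1.71 to 0.14) in Lypd1-high cells. In Calb2-high cells it was -1.55 (-3.01 to -0.20), from 14 and 8 UMIs. With 0.05 added, equal weight for these 3 ranges, an alternative chosen after seeing the data, gave a log2 ratio of -0.20, and the same cells without weights gave -0.53. Equal weight for the 3 ranges of *Lypd1* alone gave -0.69, so the weights moved the value in both directions. The -0.69 leans on the middle *Lypd1* range, with 12 *Nppc* UMIs in 26 iCON cells and 1 UMI in 20 iCKO cells. The part of the unequal filling of the ranges in the difference was not tested across animals. The gap also moved with glial RNA. Among cells with more myelin-gene RNA, *Nppc* was at 0.0685 in iCON against 0.0243 in iCKO, and the log2 ratio was -0.67. Among cells with little of it the levels were 0.0419 and 0.0399, a ratio of -0.03. Whether these ratios differ was not tested.

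By *Calb1*, the Ib marker and a calcium-binding protein gene, *Nppc* in iCON was at 0.0546 in 369 cells below 0.5 *Calb1* per 10000 and 0.0934 in 92 cells from 0.5 to 5. The thinned shares of cells with an *Nppc* UMI in these were 7.40% and 19.3%. In iCKO the levels were 0.0269 in 231 cells and 0.0327 in 156 cells. At 5 or more *Calb1* there was 1 iCON cell, with no *Nppc* UMI, and 20 iCKO cells at 0.0509, from 3 UMIs. The log2 ratios of the range from 0.5 to 5 over the cells below 0.5 were 0.45 and 0.10 for *Nppc*, in iCON and iCKO. For the same step *Npr2* went from 0.438 to 0.418 in iCON and from 0.468 to 0.402 in iCKO. *Gucy1a2* went from 0.342 to 0.436 in iCON and from 0.376 to 0.356 in iCKO. *Prkg1* went from 0.252 to 0.157 in iCON and from 0.243 to 0.175 in iCKO, log2 ratios of -0.54 and -0.38. These were -0.25 and -0.30 without the cells low in both *Lypd1* and *Calb2*, described further on.

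By *Lypd1* alone, 0 of the 4 members was past 0.5 in either library. The log2 ratios of cells with at least 10 *Lypd1* over cells with under 1 were, in iCON and iCKO, -0.09 and 0.11 for *Nppc*, -0.03 and -0.19 for *Npr2*, -0.19 and 0.06 for *Prkg1*, and 0.08 and -0.02 for *Gucy1a2*. Over all genes 2.89% were higher and 4.02% lower in iCON, and 2.86% and 2.83% in iCKO. Without the cells low in both *Lypd1* and *Calb2*, the *Prkg1* ratio changed sign in iCON, to 0.29, and was 0.14 in iCKO. *Npr2* lay between 0.398 and 0.505 in the ranges of *Lypd1* alone, in those of *Calb2* alone and in the Lypd1-high, Calb2-intermediate and Calb2-high cells of both libraries. In all Lypd1-high cells *Gucy1a2* was at 0.370 in iCON and 0.364 in iCKO. In those with under 10 *Calb2*, a subgroup picked after its values were seen, it was at 0.372 in 140 iCON cells and 0.542 in 30 iCKO cells, a log2 ratio of 0.49 and of summed UMIs 0.64 (0.19 to 1.06). In those with more *Calb2* it was at 0.363 in 40 iCON cells and 0.309 in 96 iCKO cells. Over all genes 3.99% were higher and 7.53% lower in iCKO by at least 0.5 in that subgroup of few *Calb2* UMIs. *Prkg1* in Calb2-intermediate cells was at 0.158 in iCON. The iCKO level was 0.230, which gave a log2 ratio of 0.43 and of summed UMIs 0.57 (0.03 to 1.08). This range was singled out after its values were seen, and within it 2.86% of all genes were higher and 4.75% lower in iCKO by at least 0.5. *Prkg1* was at 0.214 and 0.219 in Lypd1-high cells and at 0.181 and 0.194 in Calb2-high cells, in iCON and iCKO.

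The cells low in both *Lypd1* and *Calb2* carried a different set of cyclic GMP genes. They numbered 32 in iCON and 8 in iCKO. They had RNA of *Prph* (1.52 and 1.12 per 10000), *Gata3* (6.89 and 7.12), *Th* (4.14 and 0.825) and *Plk5* (3.85 and 3.83), which are markers of type II spiral ganglion neurons, the sparse class that contacts outer hair cells. *Smad3* and *Etv4* from the same list were at 0 there. Of the 3 Ia markers, *Pcdh20* (2.63 and 2.45) and *Rxrg* (0.658 and 0.703) were also higher there than in the other cells. *Myo7a*, from a list of hair cell markers, was found in 50% of the iCON and 0% of the iCKO cells low in both genes. At least 2 of *Prph*, *Th* and *Plk5* were found in 28 of the 32 iCON cells and 6 of the 8 iCKO cells, and in 0 of the other 430 and 399 cells. All 6 general neuron markers were lower there than in the other cells of each library. These cells were shallower, with median depths of 32141 and 21042 UMIs, and 31 of the 32 in iCON but 1 of the 8 in iCKO were *Xist* cells. A doublet caller marked 7 of the 8 iCKO cells. The remaining one is the deepest of the 8, at 79487 UMIs, had none of *Prph*, *Th*, *Plk5* or *Gata3*, and held 1100 UMIs of *Pcp4*. The iCKO values for these cells therefore rest on few cells, most of them marked as doublets.

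*Prkg1* was at 0.854 (SD 0.685) in the 32 iCON cells low in both genes and 0.186 (SD 0.230) in the other 430. Its median cell was at 0.720 against 0.163 and its highest at 2.63 against 1.13, so the cells overlap. The log2 ratio was 1.94, and that of summed UMIs 2.21 (1.86 to 2.54), a fold of 4.62. In iCKO the levels were 0.657 and 0.207, a log2 ratio of 1.46 and of summed UMIs 1.48 (0.55 to 2.27). Without the deepest iCKO cell the log2 ratio was 1.57. *Prkg1* in the whole Calb2-low range was higher than without these cells: 0.333 in all 172 iCON cells with under 10 *Calb2*, against 0.214 in the 140 of them that were Lypd1-high. The kinase gene of the second family member, *Prkg2*, was also higher in iCON, at 0.709 against 0.290, and stood at 0.633 against 0.357 in iCKO.

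*Gucy1a2*, by contrast, was lower in the cells low in both genes, at 0.112 (SD 0.199) against 0.379 (SD 0.343) in iCON, a log2 ratio of -1.40. The iCKO levels were 0.137, from 3 UMIs, and 0.369, a log2 ratio of -1.16. The beta subunit *Gucy1b3*, which the alpha subunits need as a partner, showed the opposite distribution. It was found in 21 of these 32 iCON cells, at 0.370 per 10000, and in 2 of the other 430, at 0.000827. In iCKO it was found in 4 of 8 cells and in 1 of 399. *Gucy1a3*, the alpha subunit of the main cyclase form, was found in 13 of 32 and 2 of 430 iCON cells, and in 3 of 8 and 1 of 399 iCKO cells. *Gucy1a2* and *Gucy1b3* were found in the same cell in 8 of 462 iCON cells, 7 of them low in both *Lypd1* and *Calb2*, and in 1 of 407 iCKO cells. Among the other 430 iCON cells, 324 had a *Gucy1a2* UMI and 1 had both.

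*Npr2* was at 0.303 against 0.445 in iCON, a log2 ratio of -0.49 and of summed UMIs -0.49 (-1.05 to 0.01). In iCKO it was at 0.480 against 0.443, a ratio of 0.10. The deepest iCKO cell held 8 *Npr2* UMIs, and without that cell the iCKO ratio was -0.12. *Npr3*, the clearance receptor that takes up natriuretic peptides, was at 0.191 against 0.00486 in iCON, from 20 and 10 UMIs. *Nppc* had no UMI in the 32 iCON or the 8 iCKO cells. A count of 0 allows up to 0.0294 per 10000 in the former, against 0.0668 in the other iCON cells, and up to 0.132 in the latter, which is above the level of the other iCKO cells. *Pde1c*, a calcium-stimulated phosphodiesterase gene, was at 2.18 against 0.126 in iCON and 2.27 against 0.114 in iCKO. Over all genes, 18.4% were higher and 25.8% lower in these cells by at least 0.5 in iCON, and 24.2% and 32.7% in iCKO, so a difference past 0.5 was common. Of the 4 members, *Prkg1* was higher and *Nppc* and *Gucy1a2* were lower in iCON. In iCKO *Prkg1* was higher, *Gucy1a2* was lower from 3 UMIs, and no direction can be read for *Nppc*. This contrast was chosen after the values were seen. The summed level of 8 glial markers had a median of 13.6 in these iCON cells against 51.0 in the whole library, and the part of glial RNA, sex and depth in these differences was not tested.

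**Figure D3:**
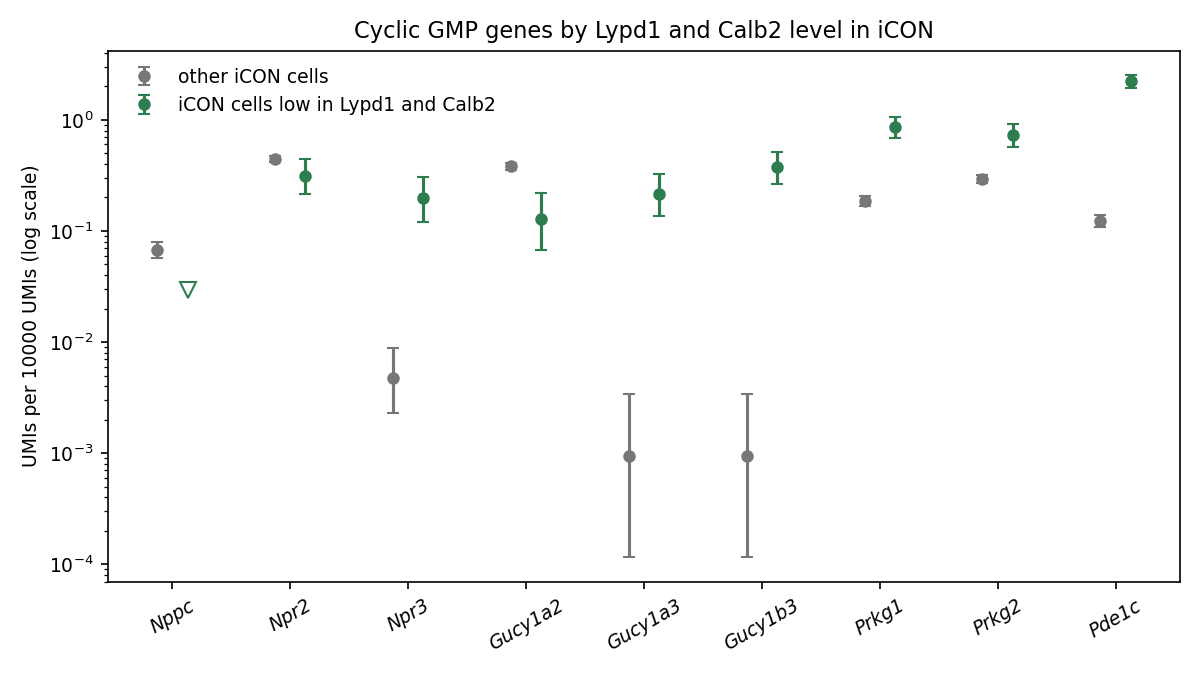
Summed UMIs per 10000 UMIs (vertical log axis) of 9 cyclic GMP genes in the 32 iCON cells low in *Lypd1* and *Calb2* (green) and the other 430 (grey), with exact 95% Poisson intervals for counting error. The open triangle for *Nppc* is the level that 3 counts would give, since no UMI was found. *Gucy1a3* and *Gucy1b3* lie far above the other cells, in which each had 2 UMIs, and *Gucy1a2* lies below them.

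Other genes of cyclic GMP signalling were taken from a list of 56 gene names, of which 33 are in the table and 18 had a mean of at least 0.05. The list held both an older and a newer name for some genes, such as *Gucy1b3* and *Gucy1b1*. Between the libraries 1 of the 18 was higher in iCKO by at least 0.5, 2 were lower and 15 lay between, with a median log2 ratio of 0.14 against -0.03 over all genes. Over all genes 1.34% were higher and 3.12% lower. *Hcn2*, a channel gated by voltage and modulated by cyclic nucleotides, was at 1.67 in iCON. In iCKO it was at 2.81, a log2 ratio of 0.73. Within the ranges its log2 ratio was 0.70 in Lypd1-high and 0.58 in Calb2-intermediate cells, and 0.44, short of 0.5, in Calb2-high cells. Its level was 0.305 in the 32 iCON cells and 0.650 in the 8 iCKO cells low in *Lypd1* and *Calb2*. The log2 ratio was 0.75 in cells with little myelin-gene RNA and 0.73 in the rest.

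*Mme*, which encodes neprilysin, a peptidase that degrades natriuretic peptides, was at 0.511 in iCON. The iCKO level was 0.294, and the log2 ratio was -0.71. It moved with glial RNA: *Mme* was at 0.668 and 0.476 in cells with more myelin-gene RNA, a ratio of -0.45, and at 0.00294 and 0.00396 in cells with little of it. *Pde1c* was at 0.268 and 0.157, a log2 ratio of -0.62. That ratio was -0.10 without the cells low in *Lypd1* and *Calb2*, which were 6.93% of iCON and 1.97% of iCKO. Without those cells 1 pathway gene was higher, *Hcn2*, and 1 lower, *Mme*, with 1.35% of all genes higher and 2.31% lower. *Nppc* was at -0.53 there, with 0.0668 in iCON and 0.0309 in iCKO. Among the genes that feed or read the same second messenger, *Nos1*, the neuronal nitric oxide synthase, was at 2.60 and 2.81, and *Furin*, a protease that cleaves the CNP precursor, at 0.159 and 0.184. *Npr1*, the receptor for the related peptides ANP and BNP, had 2 and 6 UMIs.

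**Figure D4:**
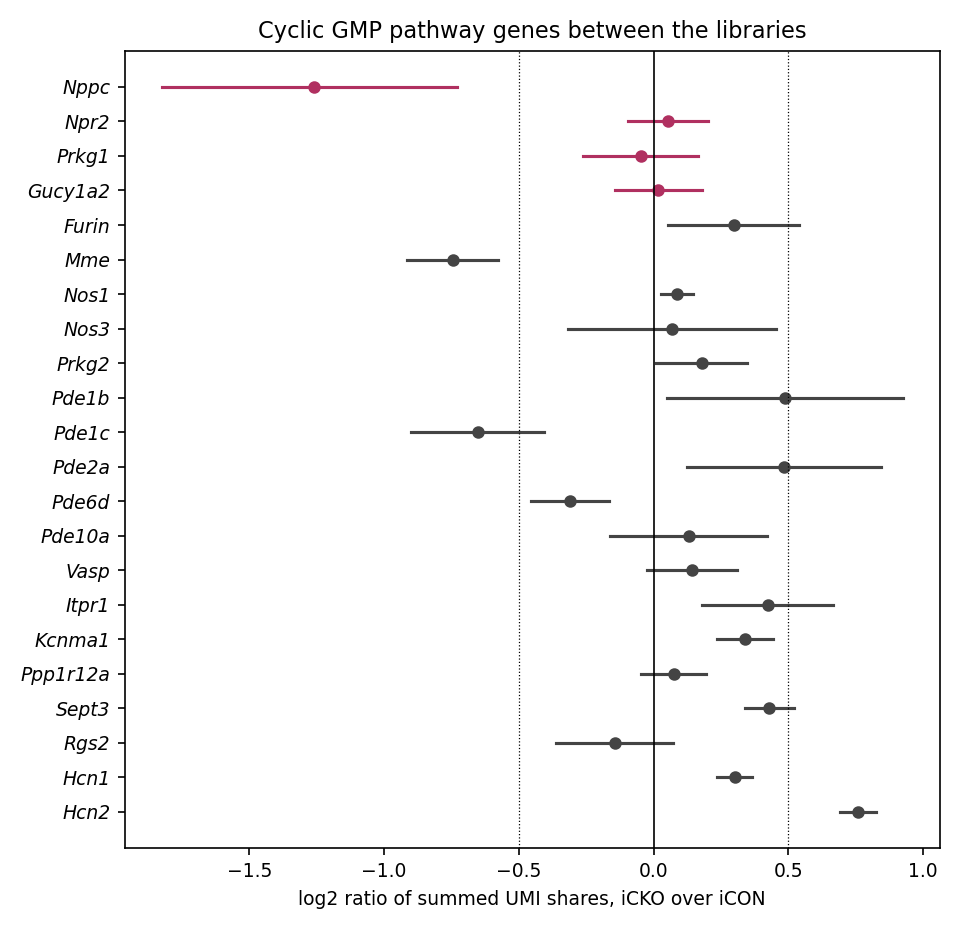
Log2 ratio of summed UMI shares, iCKO over iCON (horizontal axis), for the 4 members (red) and the 18 other pathway genes whose mean reached 0.05 per 10000, with exact 95% counting intervals; dotted lines mark 0.5 and -0.5. *Nppc* is at -1.26, *Mme* and *Pde1c* are the pathway genes furthest to the left of the rest, and *Hcn2* is furthest to the right.

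The genes whose level ran most like each member across the 462 iCON cells were found by Spearman correlation over genes with a UMI in at least 25% of these cells. Cells share a library and depth, and all values were low. For *Nppc* they were *S100a10* (0.26, and 0.15 over the 407 iCKO cells), *Atp6v1g2*, *Scg5*, *Aes* and *BC048546*. For *Npr2* they were *Scn4b* (0.20 and 0.07), *Abr*, *Tnrc6a*, *Ogdh* and *Nat8l*. The iCKO values of *Abr*, *Tnrc6a*, *Ogdh* and *Nat8l* were below 0, at -0.003, -0.05, -0.01 and -0.05. For *Prkg1* they were *Abhd12* (0.26 and 0.08), *Slc36a1*, *Nap1l1*, *Rpl5* and *Tmed3*. Without the 32 iCON cells low in *Lypd1* and *Calb2*, in which *Prkg1* was highest, these iCON values fell. They were then 0.16 for *Abhd12*, 0.14 for *Slc36a1*, 0.20 for *Nap1l1*, 0.12 for *Rpl5* and 0.18 for *Tmed3*. Over the iCKO cells *Tmed3* was below 0, at -0.09, and *Nap1l1* was at 0.01. For *Gucy1a2* they were *Map1a* (0.32 and 0.28), *Smim13*, *Meg3*, *Hecw1* and *Nefh*, and *Map1a* was the one gene of the 20 that also led in iCKO. The members were not alike among themselves: *Nppc* with *Npr2* gave 0.06 in iCON and -0.07 in iCKO, and *Npr2* with *Prkg1* 0.03 and 0.06.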

How the data were processed

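Single-cell RNA of mouse spiral ganglion neurons was measured with the 10x Genomics 3′ assay v3, per the labels. The authors deposited the natural log of 1 plus CPM per gene and cell, a unit settled from the values: linear values summed to within 1 of 1000000 in 869 of 869 cells. The deposited cell annotation assigns each barcode to a library by a text label. The submitters' processing notes name mm10, Cell Ranger and Seurat; cell filters and versions are not given in the sources used here. Whole UMI counts were computed from each cell's smallest step (100% of nonzero values within 1e-06 of a whole number). Levels, a pseudocount of 0.05 and exact Poisson and binomial (Clopper-Pearson) intervals were computed with numpy 2.4.6, pandas 2.3.3 and scipy 1.17.1. The ratio and interval code was tested on simulated data. PCR and library preparation are not covered by these intervals. Scrublet in scanpy 1.11.5 called 5 iCON and 12 iCKO doublets, which were kept. Counting limits for 0 use 3 counts. No mitochondrial gene is listed.

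The members and gene lists were chosen with earlier results of these data known. Named genes were the members, pathway genes past a log2 ratio of 0.5 or paired with a member, and the 5 most correlated genes per member. Alternatives changed the pseudocount, thinning, weights and the cells included. A protein table was not used here.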

Additional observations from a re-analysis of the deposited data

Results flagged for a closer look

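*Prkg1* stood out in the comparison of the libraries by sex-linked RNA. Its log2 ratio, iCKO over iCON, was -0.37 in *Xist* cells and 0.46 in cells with Y-linked RNA, and the difference between these ratios was not tested. Cells low in *Lypd1* and *Calb2*, in which *Prkg1* was highest, were *Xist* cells in 31 of 32 cases in iCON and 1 of 8 in iCKO. Without those cells the ratios were 0.06 and 0.26.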

How the results depend on the processing

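The members' ratios between the libraries and between Lypd1-high and Lypd1-low cells were recomputed. Of 108 alternative values, 101 moved by less than the half-width of the counting interval of summed UMIs and 7 moved further. That interval is taken without the 0.05 and is wide for *Nppc*, so the count says little about *Nppc*. None of these ratios passed 0.5 as reported, so there was no call among them to lose or to change sign. Ratios that did pass it, such as those of Calb2-intermediate over Calb2-high cells, by *Calb1*, and of cells low in *Lypd1* and *Calb2* over the others, were not among them. They were recomputed at most in subsets of cells. For Calb2-intermediate over Calb2-high cells these went by sex-linked and by myelin-gene RNA. By *Calb1* they left out the cells low in both genes, and for those cells over the others the deepest iCKO cell. Uncalled signs did change: the *Prkg1* ratio was below 0 in 9 of 15 alternatives between libraries. The *Nppc* ratio was below 0 in 15 of 15 alternatives, from -0.84 with a pseudocount of 0.01 to -0.03 in cells with little myelin-gene RNA. It passed 0.5 in 5 of them: with that pseudocount, from summed UMI shares with 0.05 added (-0.57), in cells with more myelin-gene RNA (-0.67), without cells low in *Lypd1* and *Calb2* (-0.53) and with equal weight for the *Lypd1* ranges (-0.69). *Npr2* moved to 0.19 in cells with little myelin-gene RNA. The *Prkg1* ratio between libraries moved to -0.37 in *Xist* cells, 0.46 in Y-linked cells, 0.26 in Y-linked cells without those low in *Lypd1* and *Calb2*, 0.14 with equal weight for the *Lypd1* ranges and 0.17 with equal weight for Lypd1-high, Calb2-high and Calb2-intermediate cells. *Prkg1* in Lypd1-high over Lypd1-low iCON cells moved to 0.29 without the cells low in both. Leaving out cells with much *Prph* removed 4 iCON cells and 0 iCKO cells, so it barely bears on cells with type II markers. The alternatives without cells low in both genes, with equal weight for 3 combined ranges, and with a minimum of 0.02 were chosen after seeing the data. No paired analysis was possible because each genotype has 1 library. With 37 *Nppc* UMIs in iCKO, the Lypd1-high, Calb2-intermediate and Calb2-high cells of that library rest on 14, 15 and 8 UMIs.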

Other observations

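*Runx1* RNA and *Nppc* RNA can be set side by side among the cells outside the group low in *Lypd1* and *Calb2*; this division was chosen after the values were seen. *Nppc* was at 0.0192 per 10000 in the 59 iCON cells without a *Runx1* UMI, from 6 UMIs, and at 0.0744 in the 371 cells with one. In iCKO it was at 0.00535 in 57 cells, from 1 UMI, and at 0.0352 in 342 cells. Median depths were 46449 and 50710 UMIs in iCON and 36741 and 33458 in iCKO. Most cells without a *Runx1* UMI were Calb2-high, the range with the least *Nppc* among these cells: 48 of the 59 in iCON and 52 of the 57 in iCKO. Within Calb2-high cells *Nppc* was at 0.0128 in the 48 iCON cells without a *Runx1* UMI (4 UMIs) and 0.0444 in the 37 with one (10 UMIs), and at 0.00586 (1 UMI) and 0.0129 (7 UMIs) in iCKO. *Runx1* UMIs in iCKO do not show whether the floxed allele was recombined in a cell. *Npr2* was at 0.491 and 0.438 in the same iCON cells and at 0.524 and 0.430 in iCKO.

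*Nppc* also differed by sex-linked RNA within the iCON Calb2-intermediate cells, at 0.0655 in *Xist* cells (19 UMIs) and 0.125 in cells with Y-linked RNA (59 UMIs), a log2 ratio of summed UMIs of -1.10 (-1.92 to -0.33). This range was singled out after its values were seen, and 1.44% of all genes were lower there in *Xist* cells by at least 0.5. In the other iCON ranges the intervals of that ratio included 0, from -1.50 to 0.24 in Lypd1-high and from -1.44 to 2.48 in Calb2-high cells. In the iCKO Calb2-intermediate cells the levels were 0.0714 and 0.126, from 9 and 5 UMIs, with an interval of -2.34 to 1.32. Which animals gave these cells is not stated in the labels, so sex and animal cannot be told apart.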
